A study of Mus musculus with 8 samples.

Results

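The 40 genes described here encode the glucose transporters, the enzymes of glycolysis and of the pentose phosphate pathway, the enzymes at the fate of pyruvate, and 2 regulators, Hif1a and Tigar. They were chosen by gene symbol, and 36 of them had at least 1 probe set with a single gene symbol among 18193 such genes on the array. The other 4 (Gpi1, Gapdh, Eno1 and G6pdx) are not analysed here. A probe set is a group of short oligonucleotides that reads 1 transcript. The members had 84 such probe sets, and the brightest over all arrays stood for its gene.

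RNA came from double-positive (DP) thymocytes, the stage of T cell development with CD4 and CD8 on the surface, of 4 mice titled Mutant (c-Myb deficient) and 4 titled Control (c-Myb sufficient), aged 4 to 5 weeks. Each mouse had its own one-colour Affymetrix array. Both groups were Tcra-/-, without T cell receptor alpha, and carried Cd4-Cre, a recombinase driven by Cd4 sequences that is active from the DP stage on. CD4-bearing cells were pulled out magnetically, and no sort is described after that step. The source names run against the titles, since they give the Mutant mice Mybf/w and the Control mice Mybf/f. Groups are called by their titles, and every difference is Mutant minus Control.

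Glycolysis splits glucose into pyruvate and yields ATP, and lactate dehydrogenase turns pyruvate into lactate. The pentose phosphate pathway branches off after the first step and supplies NADPH and ribose for nucleotides. Dividing thymocytes before the DP stage are known for high glucose uptake, which falls when cells become small resting DP cells.

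Array medians lay between 30.0 and 37.9 signal units, and log2 signals over tested genes correlated at 0.972 to 0.988 within groups and at 0.941 to 0.976 between them. Myb itself was not lower on Mutant arrays, at 11291 ± 543 signal units in Mutant against 9362 ± 1151 in Control (SD, n = 4 each; log2 difference 0.28, adjusted p = 0.0619). Whether its probes lie in a deleted part was not tested, so this level does not check the genotype. The noncoding RNA Xist was high in all 4 Mutant mice (4129 to 5736) and in Control replicate 1 (4358.5), but 23.4 to 36.7 in the other 3 Control mice. Where the Xist level serves as a covariate below, it stands for 2 classes, signal above 1000 units or not. All 8 DP markers listed were above the dim limit defined below, and 2 of them, Rag2 and Dntt, fell in Mutant. Among the others were Cd8a at 11073 in Mutant and 10714 in Control and Rag1 at 10824 in Mutant and 11396 in Control. Summed over 5 proliferation genes the signal was 25447 to 34879 in Mutant and 28060 to 34787 in Control. The 4 B cell markers summed to 7621 to 8550 in Mutant and 7111 to 7324 in Control, nearly all of it Ighm, while Cd79a stayed under the dim limit on every array. For 6 macrophage and dendritic cell markers the sums were 296 to 362 in Mutant and 264 to 423 in Control. Granulocyte markers (4) summed to 81.3 to 219 in Mutant and 37.4 to 82.3 in Control, and Camp was dim on every array. The 4 erythroid markers gave 104 to 157 in Mutant and 120 to 201 in Control, with Hba-a1 dim on every array. Summed stroma markers (5) were 512 to 783 in Mutant and 786 to 830 in Control, and Col1a1 was dim on every array. The part of these cells in the results below was not tested. High Xist nearly coincides with the Mutant title, with Control replicate 1 the only Control mouse that has it. The parts of the 2 in the results below cannot be told apart, also with Xist as a covariate. Whether the mice differed in sex was not tested. In such bulk RNA, fewer cells of a type and less RNA per cell cannot be told apart.

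A gene was tested when its signal exceeded the median of the whole table, 33.8 units (called the dim limit here), on at least 4 of the 8 arrays. This left 33 of the 36 members, and all 33 were above the limit on every array. Hk3, Aldoc and Eno2, paralogs used mainly in blood cells and nervous tissue, were below it on at least 7 of the 8 arrays. Their brightest probe sets read 19.4 ± 15.4, 27.1 ± 9.07 and 15.8 ± 8.17 in Mutant and 12.4 ± 5.52, 26.8 ± 6.79 and 13.0 ± 5.07 in Control (SD, n = 4 each). In limma's model over all 9941 tested genes, a gene changed when its Benjamini-Hochberg adjusted p was under 0.05.

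Of the 33 tested members 8 changed (24.2%), 5 higher and 3 lower in Mutant, while 9.98% of all tested genes changed, 5.89% higher and 4.08% lower. The transporter gene Slc2a3, the glycolytic enzyme genes Pgam1, Aldoa and Pkm, and the pyruvate dehydrogenase subunit gene Pdha1 rose. Pfkfb3, Pfkp and Ldhb fell. Groups of arrays did not overlap for 12 members, while 17.0% of all tested genes behaved so. The median log2 difference was 0.12 over the members and 0.02 over all tested genes. Since the members were picked with results of these data known, the counts are no independent evidence of a direction. With the Xist level as a covariate, Control replicate 1 alone stands against the Mutant mice at high Xist. There limma called 0 of the 33 members, and of all 9941 tested genes 15 higher and 11 lower. Without Mutant replicate 2 or 3 or Control replicate 3, it called 2 members higher and 1 lower, and without Control replicate 1 or 2 it called 3 higher. Calls over all tested genes, 586 higher and 406 lower, became 302 and 239 without Mutant replicate 2. Without Mutant replicate 3 they were 329 and 266, and without Control replicate 3 they were 288 and 220. They were 428 and 321 without Control replicate 1, and 596 and 353 without Control replicate 2. With the Xist covariate, calls over all genes also fell sharply, as given under processing.

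**Figure D1:**
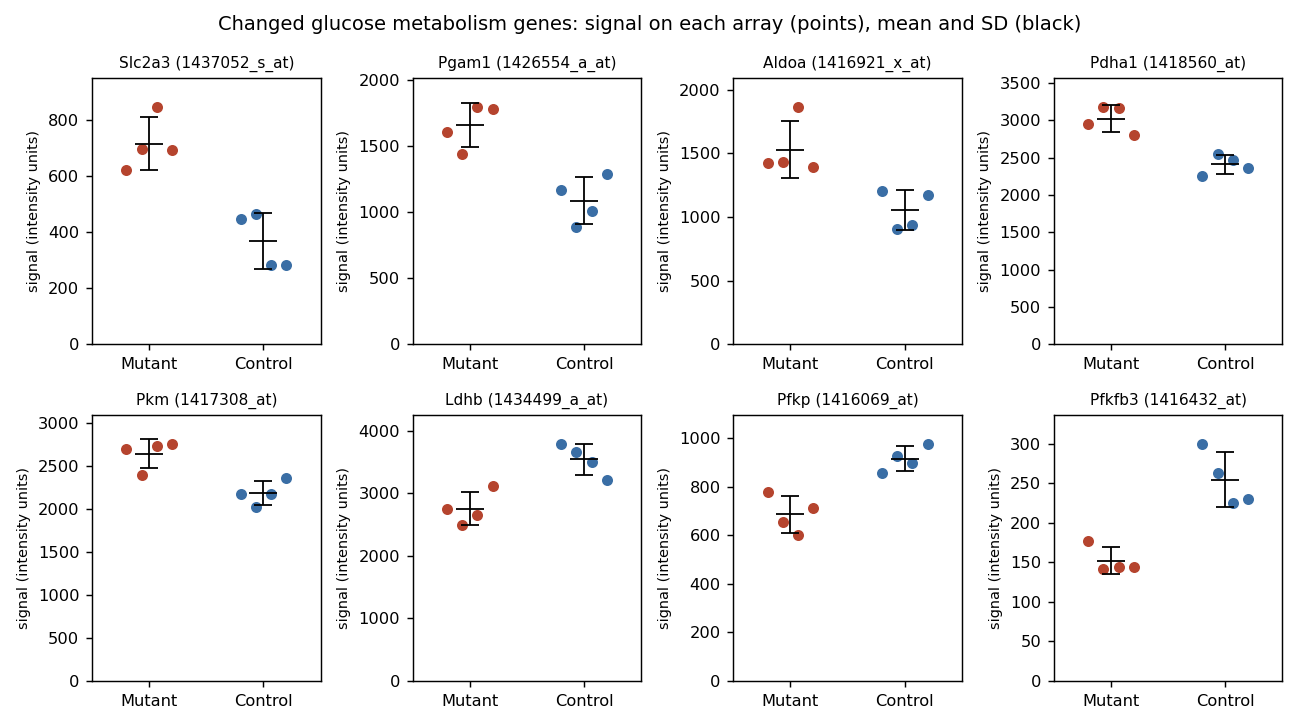
Signal of the 8 changed genes in intensity units (vertical axis, from 0) on each of the 4 Mutant arrays (red) and 4 Control arrays (blue), with the mean and SD in black. In every panel the Mutant points lie wholly above or wholly below the Control points, most clearly for Slc2a3 (624.0 to 847.9 in Mutant against 281.6 to 465.0 in Control).

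The 2 glucose transporter genes differed in behaviour. Slc2a3 encodes GLUT3, a transporter with high affinity for glucose, and read 624.0, 697.5, 847.9 and 695.1 on the Mutant arrays against 448.3, 465.0, 282.3 and 281.6 on the Control arrays. All Mutant arrays lay above all Control arrays, and Control replicates 1 and 2 lay above Control replicates 3 and 4. The log2 difference was 0.96 ± 0.18 (SE), or 1.94-fold, with an adjusted p of 0.00688. The second brightest Slc2a3 probe set differed by 0.90 ± 0.20 (adjusted p over probe sets 0.0235), and the third by 0.67 ± 0.33 (adjusted p 0.266). Its dimmest probe set was under the dim limit on every array and not tested, at 2.8 to 28.2 in Mutant and 15.6 to 33.7 in Control. The first 2 carry the suffixes that mark probes shared with other transcripts, and without such probe sets the call was lost (adjusted p = 0.247). Slc2a1 encodes GLUT1, the widely expressed transporter, and read 368.3, 344.4, 396.8 and 503.2 in Mutant against 387.8, 387.3, 395.8 and 501.6 in Control. Its groups overlapped, with a log2 difference of -0.06 and a 95% interval of -0.35 to 0.24.

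Hexokinases trap glucose in the cell by phosphorylating it. The brightest, Hk1, read 768.7, 838.0, 819.8 and 930.0 in Mutant against 775.0, 867.8, 834.0 and 798.5 in Control, and its difference of 0.03 had an interval of -0.16 to 0.23. Hk2, the inducible form, was low in both groups at 82.7 ± 21.3 in Mutant and 58.7 ± 15.0 in Control (SD, n = 4 each), with a difference of 0.40 ± 0.21 (SE, adjusted p = 0.265). Neither of the 2 tested hexokinase genes changed in limma, and 0 had an unadjusted p under 0.05, against 2492 of all 9941 tested genes.

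Phosphofructokinase catalyses the committing step of glycolysis, and 1 of its 3 isoform genes changed, against 9.98% of all tested genes. Pfkp, the platelet-type isoform, read 779.3, 656.7, 600.5 and 710.8 in Mutant against 856.8, 928.3, 900.0 and 978.0 in Control. Every Mutant array lay below every Control array, and Pfkp fell by 0.41 ± 0.10 on the log2 scale (SE, adjusted p = 0.0234). Its 2 other probe sets, both dimmer, differed by -0.46 and -0.41 and did not pass. Pfkm, the muscle-type isoform, differed in the other direction without passing, at 489 ± 30.5 in Mutant and 405 ± 63.3 in Control (log2 0.27, adjusted p = 0.179). Pfkl, the liver-type isoform, was at 414 ± 57.6 in Mutant and 406 ± 45.4 in Control (log2 0.02, interval -0.24 to 0.28). The call for Pfkp was lost without Mutant replicate 2 or 3 or without Control replicate 3 or 4, where its adjusted p reached 0.0767.

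Phosphofructokinase is switched on by a sugar bisphosphate that the Pfkfb enzymes make and break, and Tigar, named for its induction by p53, breaks it down as well. Pfkfb3, the isoform that mostly makes the activator, read 177.2, 142.0, 144.6 and 144.7 in Mutant against 300.2, 263.6, 224.6 and 229.6 in Control. The groups did not overlap, and Pfkfb3 fell by 0.68 ± 0.13 (SE, adjusted p = 0.00701), the largest fall among the tested members. Its dimmer probe set differed by -0.26 ± 0.18 and did not pass. Pfkfb4 differed by 0.49 (129 ± 26.2 in Mutant against 87.7 ± 22.1 in Control, adjusted p = 0.134), Tigar by 0.37 (46.5 to 84.5 in Mutant against 34.1 to 64.2 in Control, adjusted p = 0.319) and Pfkfb2 by -0.09 (adjusted p = 0.827). With array weights Pfkfb4 passed as higher (adjusted p = 0.0291).

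Aldolase cleaves the 6-carbon sugar into 2 triose phosphates. Aldoa read 1421.7, 1433.2, 1864.6 and 1390.7 in Mutant against 1200.7, 901.5, 939.4 and 1175.3 in Control, and the groups did not overlap. It rose by 0.53 ± 0.13 (SE, adjusted p = 0.0242), or 1.44-fold. The 4 other Aldoa probe sets differed by 0.23 to 0.49, and 2 of them passed over probe sets. All 5 carry the suffix for probes that can bind several transcripts, so no Aldoa value was left without such probe sets. The Aldoa call ended without Mutant replicate 2 or 3 or Control replicate 2 or 3 (adjusted p up to 0.0834). Tpi1, triose phosphate isomerase, read 1730.6, 1498.2, 1402.6 and 1926.3 in Mutant against 1576.8, 1071.3, 1376.1 and 1947.9 in Control. Its groups overlapped widely, and the difference of 0.16 had an interval of -0.21 to 0.52.

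Below the triose phosphates, 2 of 5 tested genes rose, against 5.89% of all tested genes. Pgam1, phosphoglycerate mutase, read 1610.6, 1441.2, 1797.1 and 1781.6 in Mutant against 1165.9, 887.1, 1007.4 and 1288.1 in Control. No Mutant array reached down to the Control range, and Pgam1 rose by 0.61 ± 0.12 (SE, adjusted p = 0.0106), or 1.53-fold. Its call held in all 8 fits that left out 1 array, as did those of Slc2a3 and Pfkfb3. Pkm, pyruvate kinase of the last step, read 2703.3, 2394.3, 2730.2 and 2763.0 in Mutant against 2177.7, 2023.8, 2171.3 and 2363.9 in Control. It rose by 0.28 ± 0.08 (SE, adjusted p = 0.0483), close to the threshold, and lost the call in 7 of the 8 fits that left out 1 array (adjusted p up to 0.125), all but that without Control replicate 4. It was also lost with no filter (adjusted p = 0.0806), with no variance trend (0.0930) and with array weights (0.05003).

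Pgk1, phosphoglycerate kinase, was the brightest of this group, at 4322.8, 4211.0, 3984.1 and 4335.9 in Mutant against 3845.6, 3547.0, 3870.6 and 4244.4 in Control. Its groups overlapped (log2 0.12, interval -0.03 to 0.28), and its other probe sets differed by -0.04 and 0.49. Eno3, the muscle enolase gene, differed by 0.41 (147 ± 32.5 in Mutant against 105 ± 14.6 in Control, adjusted p = 0.139) and passed with array weights (adjusted p = 0.0458). Bpgm makes bisphosphoglycerate, the red cell regulator of haemoglobin. All 3 of its probe sets were lower, at -0.25, -0.43 and -0.43, and the brightest did not pass (557 ± 45.9 in Mutant against 663 ± 43.3 in Control, adjusted p = 0.129), while the mean over its probe sets passed as lower by 0.37 (adjusted p = 0.0308). Of the 12 tested enzyme genes from hexokinase to pyruvate kinase, 3 rose, 1 fell and 8 did not pass, with a median difference of 0.21. Over all tested genes 5.89% rose and 4.08% fell, with a median difference of 0.02.

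**Figure D2:**
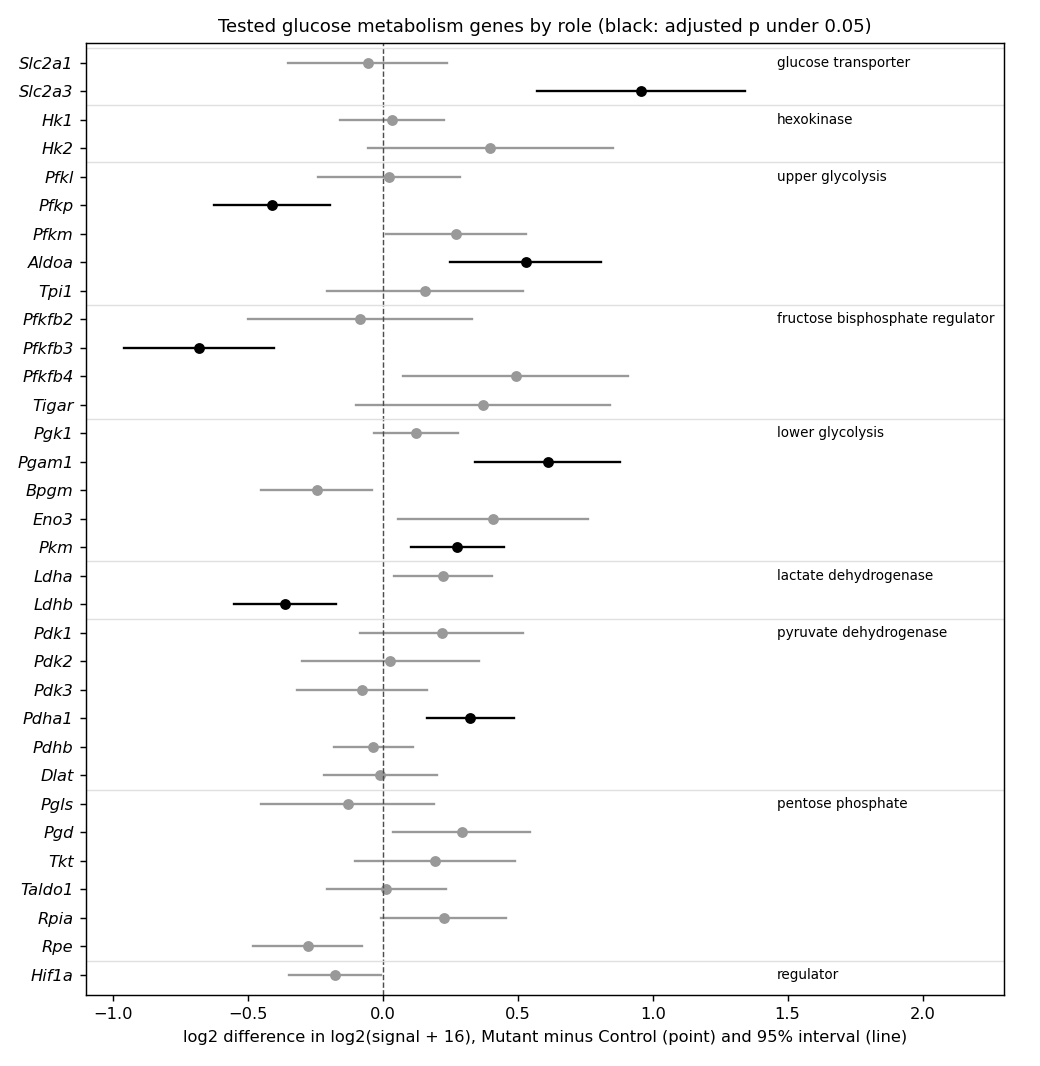
Log2 difference, Mutant minus Control, in log2(signal + 16) for the 33 tested members (horizontal axis; point, with its 95% interval as a line), grouped from top to bottom by role. The 8 genes past an adjusted p of 0.05 are in black, from Slc2a3 at 0.96 to Pfkfb3 at -0.68, and the 25 others are in grey.

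Promoter windows of the changed members were read from RefSeq (GRCm38.p6), as the 250 bases before each annotated start. The motif searched was ACGTG on either strand, 1 form of the core of hypoxia response elements. It also lies within the E-box CACGTG that Myc proteins bind, so that every CACGTG also counts as ACGTG. The other form, GCGTG, was not searched. Pgam1, which rose, and Pfkfb3, which fell, both held it in the window of their outermost start, and these 2 are shown to compare a gene of each direction. Capitals mark the motif or its reverse complement, beginning 114 bases before the start in Pgam1 (chr19:41911621-41911870, plus strand) and 60 bases before it in Pfkfb3 (chr2:11553930-11554179, minus strand).
Pgam1: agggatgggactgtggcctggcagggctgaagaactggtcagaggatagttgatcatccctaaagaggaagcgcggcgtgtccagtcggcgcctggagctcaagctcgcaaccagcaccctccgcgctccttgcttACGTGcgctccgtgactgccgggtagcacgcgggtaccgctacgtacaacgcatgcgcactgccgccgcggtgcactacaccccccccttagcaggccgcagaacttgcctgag
Pfkfb3: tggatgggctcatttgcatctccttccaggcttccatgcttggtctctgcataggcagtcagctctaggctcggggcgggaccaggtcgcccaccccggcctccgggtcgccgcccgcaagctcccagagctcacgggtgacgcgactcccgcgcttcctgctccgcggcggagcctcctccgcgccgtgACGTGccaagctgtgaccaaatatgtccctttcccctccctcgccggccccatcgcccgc
Across the 39 members with a window (Slc2a3 is named only), 19 of 56 windows (33.9%) held ACGTG, and these belonged to 15 genes. The share was 22.4% of the 10388 windows of tested genes and 16.6% of all 32851 windows. Windows of the same gene can overlap, so a single match can count more than once, as in Aldoa. A share per gene was not counted over all genes. CACGTG stood in 6 of the 56 (10.7%), against 8.56% and 6.02%. G and C made up 58.9% of the bases in member windows, 60.0% in those of tested genes and 53.2% in all. The window of an inner Pfkfb3 start (chr2:11502091-11502340, minus strand) held 1 CACGTG, read as ACGTG on both strands. Of the other changed members, Aldoa and Pkm held ACGTG in the window of an inner start, and the windows of Ldhb, Pfkp and Pdha1 did not hold it. The windows of Ldhb, Pfkp and Pdha1 did hold GCGTG, a run not counted here. So did the windows of Pgam1 and of the inner Pfkfb3 start. A match is a run of letters, not a measured site.

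Lactate dehydrogenase is a tetramer of A and B chains, and A-rich forms favour lactate production. The A chain gene Ldha read 5669.2, 4738.6, 4731.3 and 5311.6 in Mutant against 4718.4, 4018.8, 4161.7 and 4620.9 in Control. Every Mutant array was above every Control array by a narrow margin, and the difference of 0.22 ± 0.08 (SE) did not pass (adjusted p = 0.120). The B chain gene Ldhb read 2757.0, 2496.6, 2653.3 and 3115.6 in Mutant against 3795.0, 3666.1, 3499.9 and 3217.2 in Control, and fell by 0.36 ± 0.09 (SE, adjusted p = 0.0219). All 4 Ldhb probe sets passed over probe sets, with differences of -0.44 to -0.36. The Ldhb call ended in 5 of the 8 fits without 1 array (adjusted p up to 0.0767), those without Mutant replicates 1, 2 or 3 and Control replicates 1 or 3, and with no variance trend (adjusted p = 0.0544). Within each array, the log2 signal of Ldha minus that of Ldhb was 1.04, 0.92, 0.83 and 0.77 in Mutant against 0.31, 0.13, 0.25 and 0.52 in Control, a pair set side by side after its values were seen.

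Pyruvate dehydrogenase carries pyruvate into the mitochondrial acetyl-CoA pool, and the Pdk kinases switch it off. Pdha1, its catalytic alpha chain on chromosome X, read 2945.2, 3180.7, 3159.9 and 2800.6 in Mutant against 2260.9, 2554.1, 2462.8 and 2360.0 in Control. The groups did not overlap, and Pdha1 rose by 0.32 ± 0.07 (SE, adjusted p = 0.0188). Control replicate 1, the one with high Xist, had the lowest Pdha1 of all 8 arrays, and with the Xist level as a covariate the difference was 0.41 (adjusted p = 0.211). That value rests on 1 Control array at high Xist, and the parts of Xist level and Mutant title cannot be told apart. Its second probe set differed by 0.24 (adjusted p over probe sets 0.286), and the call ended without Mutant replicate 2 or 3 or Control replicate 1 or 3 (adjusted p up to 0.0713) and for the mean over its probe sets (adjusted p = 0.0706). The partner chain gene Pdhb read 2867.2, 2698.6, 2670.6 and 2695.4 in Mutant against 2640.8, 2905.2, 2911.1 and 2764.8 in Control (log2 -0.04, interval -0.18 to 0.11). Dlat, the acetyl transferase core of the complex, differed by -0.01 (interval -0.22 to 0.20).

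The kinase gene Pdk1 averaged 2295 ± 471 in Mutant and 1941 ± 131 in Control (SD, n = 4 each; log2 0.22, adjusted p = 0.368). All 4 of its probe sets had a positive difference, and the second brightest passed over probe sets at 0.40 ± 0.10 (SE, adjusted p = 0.0353). Pdk2 differed by 0.03 and Pdk3, also on chromosome X, by -0.08, and neither passed. Of the 6 tested genes at this step Pdha1 was the only change in the model over genes (16.7%, against 9.98% of all tested genes).

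None of the 6 tested pentose phosphate genes changed in limma, and 2 (Pgd and Rpe) had an unadjusted p under 0.05. Over all 9941 tested genes 2492 had such a p. Tkt, the transketolase that exchanges carbon units with glycolysis, read 5797.0, 5048.4, 4851.2 and 6451.5 in Mutant against 4665.6, 3863.0, 4812.3 and 6172.0 in Control, and the groups overlapped (log2 0.19, interval -0.10 to 0.49). Pgd, which yields NADPH in the oxidative branch, averaged 1521 ± 197 in Mutant and 1238 ± 150 in Control (log2 0.29, adjusted p = 0.142), and its 3 other probe sets differed by 0.06 to 0.39. Rpe and Rpia interconvert the pentose phosphates. Rpe was lower on every Mutant array (1103 ± 63.7 against 1345 ± 138 in Control, log2 -0.28, adjusted p = 0.0817), and it passed with array weights (adjusted p = 0.0336), while its second brightest probe set differed by -0.04. Rpia had a positive difference of 0.22 without overlap of the groups (adjusted p = 0.214). Pgls and Taldo1 differed by -0.13 and 0.01, and neither passed.

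Hif1a, the oxygen-regulated transcription factor subunit that drives many glycolytic genes, read 2617.9, 2518.2, 2601.8 and 2875.2 in Mutant against 2771.2, 3133.3, 3269.6 and 2853.7 in Control. The groups overlapped through Mutant replicate 4, and the difference of -0.18 ± 0.08 (SE) did not pass (adjusted p = 0.184). All 4 Hif1a probe sets were lower (-0.63 to -0.18), and their mean passed at -0.41 (adjusted p = 0.0124). Over all members, 74 of the 84 probe sets passed the dim filter. Of the 21 members with more than 1 such probe set, 16 had differences of 1 sign on all of them, and Hk1, Pfkl, Pgk1, Pdhb and Dlat had mixed signs.

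**Figure D3:**
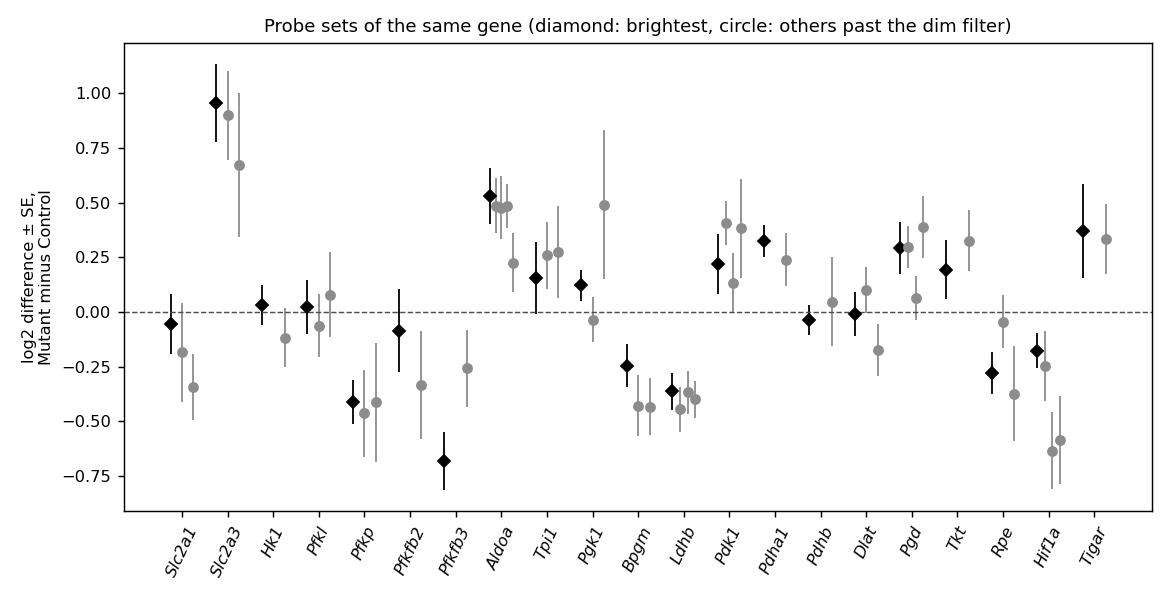
Log2 difference, Mutant minus Control, with its SE (vertical axis) for every probe set past the dim filter of the 21 members that have more than 1. Diamonds are the brightest probe set of a gene and circles the others; the 4 Ldhb probe sets lie together between -0.44 and -0.36, while the 4 of Hif1a spread from -0.63 to -0.18.

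Around these members, 73 other genes of sugar metabolism and its regulation were listed, of which 43 could be tested. The list also held oxygen-sensing genes (Epas1, Hif3a, Arnt, Vhl, Hif1an, Egln1, Egln2 and Egln3). Egln1 and Egln3 stand in the hypoxia response list below as well. Of the 43 tested genes 7 changed (16.3%, against 9.98% of all tested genes), and the median difference was -0.01. Of the 7, 4 were lower and 3 higher, and Epas1 and Egln3 were among the higher ones. Slc16a1, the lactate and pyruvate transporter MCT1, read 2572.6, 2404.8, 1524.6 and 2500.3 in Mutant against 4032.6, 3299.8, 4533.8 and 4355.3 in Control. All Mutant arrays were below the Control arrays, and Slc16a1 fell by 0.86 ± 0.16 (SE, adjusted p = 0.00749). Pdp1, the phosphatase that reverses the Pdk kinases, fell by 0.67 (107 ± 17.6 in Mutant against 178 ± 16.1 in Control, adjusted p = 0.0117). Pgm2l1, a sugar bisphosphate synthase related to phosphoglucomutase, fell by 0.78 (497 ± 110 in Mutant against 849 ± 51.9 in Control, adjusted p = 0.00550), and Prps2, which activates ribose phosphate for nucleotides, fell by 0.31 (3955 ± 145 in Mutant against 4905 ± 424 in Control, adjusted p = 0.0246). Galm, which turns over the ring form of galactose, rose by 0.68 (309.6 ± 58.2 in Mutant against 185 ± 8.58 in Control, adjusted p = 0.00936). Epas1, a relative of Hif1a, rose by 0.75 (159.7 ± 27.1 in Mutant against 89.5 ± 25.8 in Control, adjusted p = 0.0271) with overlapping groups. Egln3, a prolyl hydroxylase that marks hypoxia-inducible factors for breakdown, rose by 0.71 (731 ± 76.5 in Mutant against 443 ± 67.5 in Control, adjusted p = 0.00486). The Prps2 call ended without Mutant replicate 1, 2 or 3 or Control replicate 1 or 2 (adjusted p up to 0.0714), with no filter (0.0559) and with no variance trend (0.0696). That of Epas1 ended without Mutant replicate 2 or 3 or Control replicate 1, 3 or 4 (adjusted p up to 0.0839) and with no filter (0.0603).

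The hypoxia response list held 20 symbols, with Ero1l and Ero1a naming the same gene. Of these 14 were tested and 3 changed (21.4%, against 9.98% of all tested genes). Ndrg1 and Egln3 were higher and Kdm3a lower, and the median difference over the list was 0.15. Ndrg1, a stress and differentiation gene, read 417.2, 345.2, 376.6 and 420.3 in Mutant against 115.2, 139.6, 159.4 and 160.5 in Control. It rose by 1.35 ± 0.13 (SE, adjusted p = 0.000154), and it was also called with the Xist level as a covariate (1.62, adjusted p = 0.00769). Kdm3a, a histone demethylase gene, fell by 0.44 (1732 ± 120 in Mutant against 2357 ± 295 in Control, adjusted p = 0.0193), a call that ended without Mutant replicate 2 or Control replicate 3 (up to 0.0686). With the Xist covariate the other 8 changed genes of the 2 lists did not pass. The vascular growth factor gene Vegfa differed by 0.33 (adjusted p = 0.377) and Bnip3, a mitophagy gene, by -0.14 (adjusted p = 0.544), and neither passed.

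**Figure D4:**
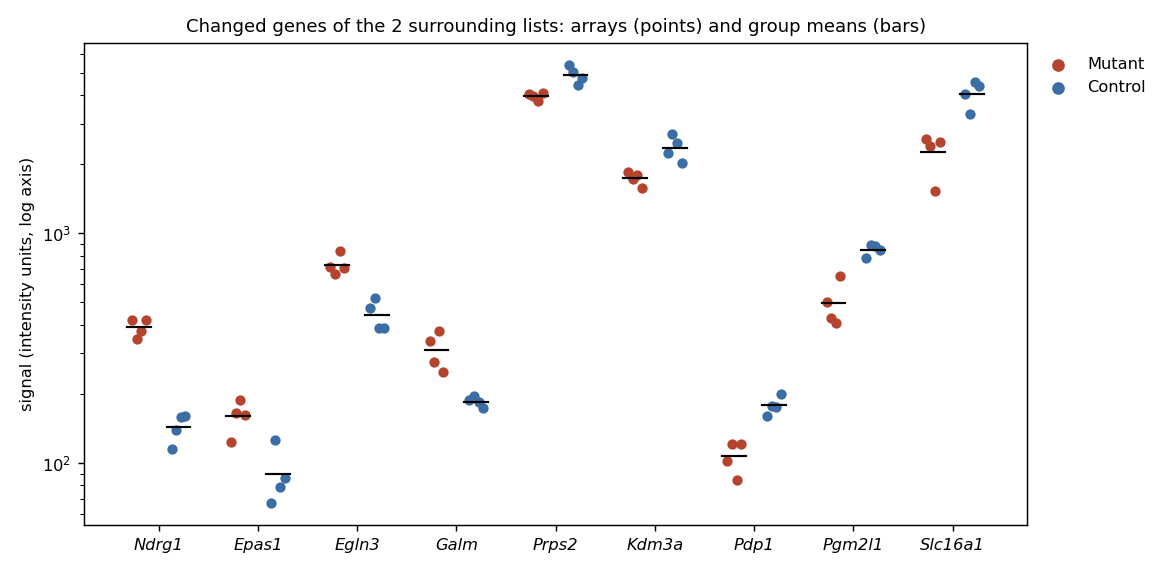
Signal in intensity units (vertical axis, logarithmic) of the 9 changed genes from the lists of other sugar metabolism and hypoxia response genes, with each array as a point (Mutant red and left, Control blue and right) and the group mean as a bar. Ndrg1 shows the widest gap (345.2 to 420.3 in Mutant against 115.2 to 160.5 in Control), and Epas1 is the only one of the 9 whose groups overlap.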

How the data were processed

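The deposited table holds 1 linear intensity per probe set and array, which the authors made with GCOS, Affymetrix's array software, as the submitters' processing notes say. The sources used here do not give its version. The 2% trimmed mean was 250.0 on each array, so arrays had been scaled to a common level, which removes differences in total RNA per cell. Of 45101 probe sets 64 controls were left out, and the platform annotation gave 34945 a single gene symbol, 932 several and 9160 none. IDs of 34741 were found in the RefSeq table of GRCm38.p6, used for current symbols, chromosomes and promoter windows.

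Intensities were converted to log2(signal + 16), which understates the change of dim genes. The test was limma (version 3.58.1, R version 4.3.3), two-sided, by lmFit and eBayes with a variance trend, on the brightest probe set of each of 9941 genes, with Benjamini-Hochberg adjustment over all of them. Differences between probe sets come from the same fit over all single-symbol probe sets past the filter, adjusted over those. Arrays are separate mice per the labels, and their number limits the precision. Tables and figures used Python 3.11.15, pandas 2.3.3 and matplotlib 3.10.9. Members, lists and tests were chosen with earlier results of these data known. Per-array values are given for each changed member and for the brightest member of each role, and every changed gene of the 2 surrounding lists is named; genes singled out beyond this (array values of Slc2a1, Slc16a1 and Ndrg1, and the naming of Vegfa and Bnip3) were chosen after their values were seen. As alternatives, each array was left out with the tested genes kept, or 1 of these was changed: pseudocount, normalization, filter, choice of probe set, array weights, variance trend, replicate block or Xist covariate. Simulated data for Mutant minus Control covered 9941 genes, with independent noise and 50 genes altered at each fold. The share of altered genes recovered was 12% for a fold of 1.25, 62% for 1.5, 86% for 2 and 96% for 4. Fewer genes were altered there than the 992 called in the data, so these shares may not hold for the real fit.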

Additional observations from a re-analysis of the deposited data

Results flagged for a closer look

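In 8 of 84 groups of 4 arrays examined for the tested members and the changed genes around them, a single array stood apart from its 3 partners. Chance alone marks about 1 group in 20. Aldoa read 1864.6 in Mutant replicate 3 and 1390.7 to 1433.2 in the other Mutant mice. Slc16a1 read 1524.6 in the same mouse and 2404.8 to 2572.6 in the other Mutant mice. Pkm read 2394.3 in Mutant replicate 2 and 2703.3 to 2763.0 in the others. Mutant replicate 1 was highest of its group for Pfkfb3 (177.2, others 142.0 to 144.7), Pdhb (2867.2, others 2670.6 to 2698.6) and Rpe (1197.8, others 1061.5 to 1081.9). Control replicate 4 was highest for Slc2a1 (501.6, others 387.3 to 395.8) and lowest for Rpia (815.5, others 895.3 to 907.8).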

How the results depend on the processing

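The 5 rises and 3 falls among the members kept their direction in all 19 alternatives where they could be tested. Without probe sets named _s_at or _x_at 3 members were higher, with Aldoa untested. The mean over probe sets gave 4 higher, losing Pdha1, and 5 lower, adding Bpgm and Hif1a. No variance trend gave 4 higher and 2 lower, losing Pkm and Ldhb, no filter gave 4 higher, losing Pkm, and array weights gave 6 higher and 4 lower, adding Pfkfb4, Eno3 and Rpe and losing Pkm. The Xist covariate gave 0 higher and 0 lower. Fits without 1 array gave 2 to 5 higher and 1 to 3 lower. The replicate block gave 5 higher and 3 lower and changed no member's call. It gave 618 higher and 417 lower over all genes. Deviations of same-numbered arrays correlated at 0.0037, 0.172, -0.274 and 0.361. No Mutant array correlated best with the Control array of its own number. With 4 arrays per group these values cannot settle whether the numbers pair the mice. Over all genes, 586 higher and 406 lower calls became 1035 and 710 with array weights, and 15 and 11 with the Xist covariate. They became 288 and 220 without Control replicate 3, and 302 and 239 without Mutant replicate 2. Without Mutant replicate 1 they were 338 and 289, and without Mutant replicate 3 they were 329 and 266. They rose to 706 and 511 without Mutant replicate 4. The causes were not tested. Signs turned in 24 cases for 8 members that were not called. The Xist covariate gave Dlat 0.074, Pdhb 0.049, Pfkfb2 0.26, Slc2a1 0.040 and Taldo1 -0.12. Array weights gave Pfkl -0.043 and Taldo1 -0.046, quantile normalization gave Pdk2 -0.060 and Pfkl -0.026, the mean over probe sets gave Hk1 -0.043 and Pdhb 0.0045, and leaving out _s_at and _x_at probe sets gave Dlat 0.10. Without 1 array, Slc2a1 ranged over -0.16 to 0.031, Hk1 over -0.017 to 0.073, Pfkl over -0.067 to 0.087, Pfkfb2 over -0.20 to 0.045, Pdk2 over -0.039 to 0.14, Dlat over -0.058 to 0.060 and Taldo1 over -0.077 to 0.054.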

Other observations

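Gapdh, which has no single-symbol probe set here, is also read by 3 control probe sets of the array. Its 3 prime control read 8307 to 9541 in Mutant and 7594 to 8731 in Control, the middle one 9116 to 10843 in Mutant and 8648 to 10014 in Control, and the 5 prime one 10661 to 11573 in Mutant and 10020 to 11506 in Control. All 3 ranges overlapped. The ratio of its 3 prime to its 5 prime signal, a measure of RNA integrity, was 0.779 to 0.824 in Mutant and 0.718 to 0.821 in Control. The 18S rRNA control read 7142.7 in Mutant replicate 4, 772.0 to 1459.4 in the other Mutant mice and 676.1 to 1299.8 in Control.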
